A study of Mus musculus with 126 samples.

Results

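The cells described here were mouse embryonic stem cells in which both DNA methylation and histone deacetylation had been disturbed, compared with untreated wild type cells by RNA-seq. The labels give the treated group as Dnmt1-/-, Dnmt3a-/-, Dnmt3b-/- cells (triple knockout, TKO) exposed to 5 ng/µl trichostatin A (TSA) for 36 h, and the control group as J1 wild type cells given 0.0033% DMSO for the same time. All cells were grown on gelatin in serum with leukaemia inhibitory factor. The 4 libraries of the comparison, 2 per group, were taken by genotype and treatment from 126 samples in the series, of which 8 are RNA-seq libraries. The other 4 RNA-seq libraries, 2 of wild type cells with TSA and 2 of TKO cells with DMSO, carry a single change each. The groups are called the control (wild type DMSO), TSA alone (wild type TSA), TKO alone (TKO DMSO) and both changes (TKO TSA). The labels number the libraries of a group 1 of 2 and 2 of 2 without saying whether they came from separate cultures, or how many clones the TKO cells came from, so a p-value measures only the spread between these libraries, which may be technical.

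DNA methylation at CG sites is written by Dnmt3a and Dnmt3b and copied at each division by Dnmt1, and it keeps many germline genes, imprinted alleles and genes of the X chromosome silent in stem cells. Embryonic stem cells are among the few cell types that survive without it. Histone deacetylases remove acetyl groups from histone tails, and TSA blocks the zinc-dependent deacetylases, so that acetylation rises across the genome. Both layers are textbook barriers to transcription, and the comparison asks which pathways and gene families are expressed differently once both are taken away.

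The labels were checked against the genes they concern. Dnmt1 was at 464 and 428 CPM in the control, 374 and 360.1 with TSA alone, 135 and 126 in TKO alone and 123 and 128 with both changes, where CPM is counts per 1000000 after scaling by the trimmed mean of M-values (TMM). Dnmt3b was at 596 and 588 CPM in the control and 61.4 and 76.1 with both changes, and Dnmt3a at 185 and 237 CPM in the control and 30.0 and 39.1 with both changes. Each of these 3 genes was lower in both TKO TSA libraries than in both wild type DMSO libraries. With TSA alone Dnmt1 and Dnmt3b were below the control as well, though by less than with both changes. H1f0, a linker histone gene that is a usual sign of deacetylase inhibition, was at 40.1 and 50.3 CPM in the control, 120.0 and 98.1 with TSA alone, 63.4 and 90.2 in TKO alone and 172 and 161 with both changes. All 14 stem cell markers were above 1 CPM in every group, and their summed level was 5514 and 5728 CPM in wild type DMSO and 3267 and 2963 CPM in TKO TSA. In bulk RNA, fewer cells of a type and less RNA per cell cannot be told apart. Library totals lay between 13280631 and 15542527 counts, at which 3 counts equal 0.183 to 0.243 CPM.

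Most of the measured genes differed between TKO TSA and wild type DMSO. Of 15822 genes tested, 9793 were called at an edgeR adjusted p below 0.05 (61.9%), with 5015 higher (31.7%) and 4778 lower (30.2%). The higher genes moved further. At 2-fold or more 2962 genes were higher (18.7%) and 1441 lower (9.11%), together 27.8%, at 8-fold or more 738 and 88, and at 32-fold or more 201 and 11. Scaling by total counts alone moved the median of all genes by 0.17 on the log2 scale and gave 6064 higher and 3542 lower, so 51.2% of the calls were higher with TMM and 63.1% with total counts. Upper quartile scaling moved that median by 0.11. The changes below are relative to the TMM reference, on which the median log2 fold change of all tested genes was 0.00.

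Each gene was also set against the groups with a single change. Against wild type TSA, which carries the inhibitor alone, 2910 genes (18.4%) were called in TKO TSA, 1584 higher (10.0%) and 1326 lower (8.38%). Without wild type TSA replicate 1 these were 527 and 414, without TKO TSA replicate 2 they were 772 and 584, and without TKO TSA replicate 1 those lower were 844. Against TKO DMSO, which carries the knockout alone, 9284 (58.7%) were called, 4872 higher (30.8%) and 4412 lower (27.9%), so that 52.5% of the calls were higher, or 64.4% with total count scaling. The departure from the sum is the log2 fold change with both changes minus the 2 single log2 fold changes, all against wild type DMSO, and 213 genes (1.35%) were called for it, 139 above the sum (0.879%) and 74 below (0.468%). Of these calls 65.3% were above the sum, or 53% with upper quartile scaling. That count rested on single libraries, at 6 above and 4 below without TKO DMSO replicate 2, 46 and 26 without wild type DMSO replicate 1, 38 and 15 without wild type TSA replicate 1, 80 and 38 without wild type TSA replicate 2, 30 and 14 without TKO DMSO replicate 1, 35 and 17 without TKO TSA replicate 2, and 292 and 118 without wild type DMSO replicate 2. Of the 20 genes named below with a called departure, all kept its sign whichever library was left out, 5 kept their call without TKO DMSO replicate 2 and 10 without TKO DMSO replicate 1. Without wild type TSA replicate 1, TKO TSA replicate 2, wild type DMSO replicate 1 or wild type TSA replicate 2 the calls kept numbered 12, 12, 12 and 16.

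The direction went with how strongly a gene was expressed. In the lowest quartile of genes by mean level over the 8 libraries, 42.0% were called higher and 12.0% lower. In the highest, 19.6% were higher and 46.2% lower. The libraries that set the quartiles are also those tested, so level and direction are not independent. A fall from a few counts is also harder to call than a rise. The X chromosome had a larger share of higher genes (43.0%, with a median log2 fold change of 0.25) than all tested genes did. On chromosomes 15 and 8 the lower genes took the larger share, at 40.1% and 39.4%, with medians of -0.20 and -0.16. The same 2 chromosomes had medians of -0.21 and -0.20 in TKO DMSO against wild type DMSO, and a difference in copy number between the cells was not tested. Among the 5129 genes with no count in either wild type DMSO library, 63 had at least 10 counts in both TKO TSA libraries, and 22 of these lie on the X chromosome. That chromosome holds 1026 of the 23420 genes counted and 632 of the 15822 tested. None of those 63 genes was without counts in both of the groups with a single change. No gene was lost completely, counting as lost a gene with at least 10 counts in both wild type DMSO libraries and none in TKO TSA.

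**Figure D1:**
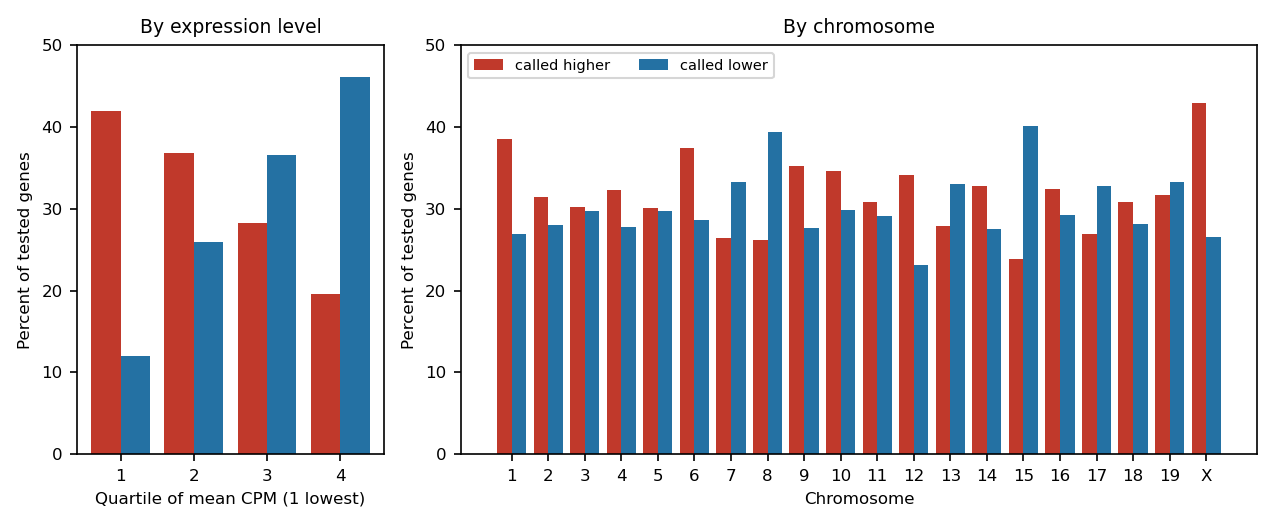
Percent of tested genes called higher (red bars) or lower (blue bars) in TKO TSA against wild type DMSO, by quartile of mean expression over the 8 libraries (left) and by chromosome (right). The higher share falls from 42.0% in the lowest quartile to 19.6% in the highest, and chromosome X has the largest higher share of the chromosomes drawn, at 43.0%.

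The starts of genes at which results below turn are shown first. RefSeq promoter windows (build GRCm38.p6, 250 bases before to 50 after the start) matched 11396 of the 15822 tested genes. At 72.0% that is too few for a comparison between called classes, which is therefore void and not given. The 250 bases before the start are printed for 7 genes, 5′ to 3′ on the gene's own strand, with every CG dinucleotide in capitals. Taf7l (chrX:134476491-134476740, minus strand), Mael (chr1:166238745-166238994, minus strand), Brdt (chr5:107330944-107331193, plus strand) and Gpat2 (chr2:127424949-127425198, plus strand) are germline genes that rose. 4930550L24Rik (chrX:58911211-58911460, plus strand) is the X-linked gene with the third largest fitted rise. Zscan4d (chr7:11166149-11166398, minus strand) stands for the two-cell genes, and Trh (chr6:92244651-92244900, minus strand) for the genes that fell most.
Taf7l: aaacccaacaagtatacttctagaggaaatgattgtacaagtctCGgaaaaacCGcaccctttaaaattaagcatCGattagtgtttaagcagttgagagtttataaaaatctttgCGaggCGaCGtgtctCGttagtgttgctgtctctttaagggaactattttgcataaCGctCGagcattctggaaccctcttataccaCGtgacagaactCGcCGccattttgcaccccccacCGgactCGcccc
Mael: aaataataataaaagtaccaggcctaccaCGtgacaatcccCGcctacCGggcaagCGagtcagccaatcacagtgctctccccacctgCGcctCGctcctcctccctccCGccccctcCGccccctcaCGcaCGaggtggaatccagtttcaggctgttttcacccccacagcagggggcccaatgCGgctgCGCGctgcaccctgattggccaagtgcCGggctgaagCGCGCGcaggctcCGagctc
Brdt: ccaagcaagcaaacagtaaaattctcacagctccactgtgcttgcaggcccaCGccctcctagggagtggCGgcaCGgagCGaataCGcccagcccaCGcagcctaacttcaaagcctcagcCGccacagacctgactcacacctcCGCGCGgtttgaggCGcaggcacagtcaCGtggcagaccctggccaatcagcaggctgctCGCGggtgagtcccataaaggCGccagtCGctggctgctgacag
Gpat2: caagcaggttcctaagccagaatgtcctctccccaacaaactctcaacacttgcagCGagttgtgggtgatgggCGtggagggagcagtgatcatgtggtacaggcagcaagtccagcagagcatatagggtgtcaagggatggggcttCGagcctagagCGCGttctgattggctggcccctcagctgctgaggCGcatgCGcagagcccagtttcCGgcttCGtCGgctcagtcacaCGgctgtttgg
4930550L24Rik: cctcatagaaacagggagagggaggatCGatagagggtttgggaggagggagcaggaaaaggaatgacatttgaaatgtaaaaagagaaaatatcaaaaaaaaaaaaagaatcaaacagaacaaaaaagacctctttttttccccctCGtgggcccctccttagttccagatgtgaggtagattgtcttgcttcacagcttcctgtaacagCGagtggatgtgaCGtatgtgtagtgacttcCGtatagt
Zscan4d: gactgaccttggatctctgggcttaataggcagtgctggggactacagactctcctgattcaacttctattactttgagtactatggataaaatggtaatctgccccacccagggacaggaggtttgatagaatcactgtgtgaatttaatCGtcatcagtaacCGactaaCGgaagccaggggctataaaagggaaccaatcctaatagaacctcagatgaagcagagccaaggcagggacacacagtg
Trh: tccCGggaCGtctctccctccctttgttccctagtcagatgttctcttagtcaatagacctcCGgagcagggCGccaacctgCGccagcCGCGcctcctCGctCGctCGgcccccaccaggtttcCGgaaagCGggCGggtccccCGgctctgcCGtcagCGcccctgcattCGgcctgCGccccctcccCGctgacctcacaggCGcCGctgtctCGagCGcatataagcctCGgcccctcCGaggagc

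The printed stretches hold 14 CG dinucleotides in Taf7l, 18 in Mael, 16 in Brdt, 11 in Gpat2, 5 in 4930550L24Rik, 3 in Zscan4d and 25 in Trh. The genes that rose thus range from CG-poor to CG-rich starts, and a CG-rich start was also found at a gene that fell. Exact matches on either strand were sought for CACGTG (the E-box that MAX dimers bind), GGGCGG (GC box, SP1), CCGGAAG (ETS, GABPA), the palindrome of NRF1 and the core of YY1, none of which contains another. The E-box letters begin at base 202 of the printed Taf7l stretch, at base 28 in Mael and at base 173 in Brdt, and the NRF1 letters at base 195 in Gpat2. The GC box letters begin at bases 110 and 119 in Mael and at base 134 in Trh. Of the 16 windows found for the germline transcription and chromatin genes, 43.8% hold the E-box, and of the 16 for the piRNA genes 37.5% do. All 16369 windows, found for part of the 23420 genes counted, had it in 8.24%. The 11396 windows of tested genes had it in 10.1%. The ETS letters were in 36.6% of the 41 windows of spliceosome genes and 34.3% of the 67 of mitochondrial ribosomal protein genes. The share was 12.0% of all windows and 16.5% of those of tested genes. Magea and Mageb windows had a median of 2 CG dinucleotides, against 14 over all windows and 20 over those of tested genes. For the two-cell genes, windows were found for 14 of 24 members, so no share is given. A match in such a window is a description of its letters only.

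Most of the listed germline genes rose. Such genes are silent in most cells, many carry methylated promoters, and their products protect the germline genome from transposons or carry out meiosis. Of 17 tested genes of the piRNA pathway, which silences transposons through small RNAs, 12 rose and 2 fell, with a median log2 fold change of 1.52. Of 21 tested meiotic genes 15 rose and 1 fell (median 1.55), and of 14 germline transcription and chromatin genes 11 rose and 1 fell (median 2.25). Of the 8 RNA regulators 3 were higher (37.5%) and 2 lower (25.0%), near the shares of all genes.

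Dazl (chromosome 17, 50279394 to 50293599), an RNA-binding protein that licenses germ cells, was at 8.42 and 12.3 CPM in the control, 25.8 and 58.2 with TSA alone, 134 and 148 in TKO alone and 267 and 259 with both changes. Both TKO TSA libraries lay above all others, and the log2 fold change was 4.67 ± 0.32 (SE; adjusted p 1.48e-06) against wild type DMSO, 2.65 (adjusted p 0.000194) against TSA alone and 0.90 (adjusted p 0.0114) against TKO alone. Asz1 (chromosome 6, 18050964 to 18109061), which anchors the piRNA machinery at mitochondria, was at 0.428 and 0.729 CPM in the control, 1.95 and 4.55 with TSA alone, 16.4 and 18.5 in TKO alone and 69.6 and 73.2 with both changes. Its 4 groups did not overlap, and its log2 fold change was 6.95 ± 0.34 (SE; adjusted p 2.75e-07). Gpat2, a mitochondrial acyltransferase needed for piRNA production, was at 4.5 and 7.29 CPM in the control, 11.7 and 23.1 with TSA alone, 39.8 and 42.8 in TKO alone and 76.1 and 84 with both changes. Like Dazl and Asz1 it was higher in TKO DMSO than in wild type TSA, and highest with both changes.

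Among other germline genes, Brdt and Mael were high mainly where TSA was given. Brdt, a testis bromodomain protein that reads acetylated histones, was at 1.71 and 2.11 CPM in the control, 17 and 26.8 with TSA alone, 2.39 and 2.33 in TKO alone and 23.1 and 36 with both changes. The TSA libraries of both genotypes were high and overlapped, and the log2 fold change was 3.96 (adjusted p 3.33e-06) against wild type DMSO and 0.44 (adjusted p 0.224) against TSA alone. Mael, a piRNA factor of the nuage, was at 21.3 and 24.9 CPM in the control, 64.3 and 74.3 with TSA alone, 30.2 and 27.8 in TKO alone and 73.9 and 58.7 with both changes, with a log2 fold change of -0.06 (adjusted p 0.781) against TSA alone. Taf7l, a germ cell subunit of the general transcription factor TFIID, was at 5.0 and 5.84 CPM in the control, 34.4 and 37.9 with TSA alone, 16.8 and 18.8 in TKO alone and 86.9 and 70.7 with both changes. Its level was above the control in each group with a single change and highest with both, with a log2 fold change of 3.86 (adjusted p 1.57e-07). Sycp2, a component of the meiotic chromosome axis, had a log2 fold change of 2.73 (adjusted p 1.08e-05), and Stra8, the retinoic acid target that starts meiosis, one of 3.12 (adjusted p 0.000345).

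Not every germline gene rose. Ddx4, the germ cell helicase also called Vasa, was at 19.3 and 25.8 CPM in the control and 8.73 and 7.22 with both changes, and its log2 fold change was -1.50 (adjusted p 6.56e-05). Tdrd1, a Tudor protein of the piRNA pathway, was at 13.1 and 10.1 CPM in the control, 12.3 and 8.7 with TSA alone, 1.98 and 1.75 in TKO alone and 2.44 and 2.01 with both changes. It was low in both TKO groups, with log2 fold changes of -2.38 (adjusted p 2.17e-05) against wild type DMSO and 0.25 (adjusted p 0.515) against TKO alone. Sycp3, of the meiotic axis, did not pass the test (log2 fold change -0.55, adjusted p 0.148), and was called lower without wild type DMSO replicate 1 (log2 fold change -0.98, adjusted p 0.0133). Small counts moved when a library was left out. The RNA regulators had 5 members higher and 1 lower without wild type DMSO replicate 1, and 1 lower without TKO TSA replicate 1 or with total count scaling. The lower piRNA genes numbered 1 without wild type DMSO replicate 2, TKO TSA replicate 2 or either TKO DMSO library, and with upper quartile or total count scaling. The lower meiotic and the lower germline transcription genes each numbered 2 without wild type DMSO replicate 1, the latter also without TKO TSA replicate 2.

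Genes of the X chromosome that are normally read in testis gave the highest ratios. Of 15 listed Magea and Mageb genes, whose products are known as cancer-testis antigens, 10 were tested, of which 9 rose and none fell. For 4 of the 10 there was no count in wild type DMSO. These passed the count filter through other groups only and could not be called lower. Members with few counts there, such as Magea5 and Magea8, also passed it through other groups and could hardly be called lower. Here and in each list below with no call in a direction, edgeR also gave 0 members at an unadjusted p below 0.05 in that direction, and DESeq2 called 0. The median log2 fold change of the Magea and Mageb genes was 8.32 as fitted, and 4.89 with the 4 members that had no count in wild type DMSO set to the bound that 3 counts over the group allow. All 7 tested Rhox genes, reproductive homeobox genes, rose (median 3.53), as did all 11 other X-linked testis genes tested (median 3.88). In these lists too, members with few counts in the control, such as Rhox10, passed the filter through other groups and could hardly be called lower. Many of these genes have near-identical copies, so the split of reads between members is uncertain. Against TSA alone, where 10.0% of all genes were called higher, 9 Magea and Mageb genes, 4 Rhox genes and 10 other X-linked testis genes were higher.

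Magea8 was at 0 and 0.0811 CPM in the control, 0.0611 and 0.136 with TSA alone, 5.34 and 9.9 in TKO alone and 18.2 and 31 with both changes, so that the TKO libraries stood apart with or without TSA. From the 1 count in wild type DMSO the ratio was 654-fold (95% counting interval 117 to 25861). Magea5 went the same way, at 0.0714 and 0 CPM in the control, 0.0611 and 0 with TSA alone, 10.1 and 10.3 in TKO alone and 17 and 28.4 with both changes. Magea2 had no count in wild type cells under either treatment and was at 3.25 and 6.22 CPM in TKO TSA, at least 42-fold higher than wild type DMSO. The most abundant of these genes in their wild type state, Rhox5, a homeobox gene of reproductive and placental tissue, was at 30.3 and 51.6 CPM in the control, 29.7 and 49.7 with TSA alone, 60.2 and 85.7 in TKO alone and 163 and 204 with both changes. Its log2 fold change was 2.17 (adjusted p 5.72e-05) against wild type DMSO and 2.21 (adjusted p 0.000459) against TSA alone. Rhox10 was at 0.285 and 0.567 CPM in the control, 5.07 and 8.09 with TSA alone, 1.37 and 3.13 in TKO alone and 11 and 12.1 with both changes, and against TSA alone it did not pass (log2 fold change 0.82, adjusted p 0.0905).

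Of the 10 largest fitted rises over all genes, 7 were at genes of the X chromosome, which holds 632 of the 15822 tested genes. 1700080O16Rik (chromosome X, 51968695 to 51972772) had no count in wild type DMSO and was at 32 and 37.5 CPM in TKO TSA, at least 306-fold higher. In the groups with a single change it was at 0.0611 and 0.068 CPM with TSA and 5.2 and 5.97 CPM in TKO. 4930550L24Rik (chromosome X, 58911461 to 58920304) had 1 count in wild type DMSO and was at 63.3 and 79 CPM in TKO TSA, a ratio of 1882-fold (95% counting interval 337 to 74363). It was at 0.733 and 1.29 CPM with TSA alone and 10.2 and 8.66 CPM in TKO alone. Pramel3, of a family of testis antigens, rose 811-fold (95% counting interval 145 to 32063), and Gm773 at least 144-fold. These intervals and bounds hold for counting error alone and do not allow for PCR copies of a molecule.

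Other large rises were at autosomal genes. Cd200r2, a receptor-like gene of the Cd200 receptor family on chromosome 16, had no count in wild type DMSO and was at 2.99 and 6.8 CPM with TSA alone, 0.684 and 0.80 in TKO alone and 6.43 and 11.9 in TKO TSA, at least 81.2-fold higher than the control. Slc34a2, a sodium-phosphate cotransporter gene, was at 3.6 and 7.48 CPM with TSA alone and 4.2 and 13.6 CPM in TKO TSA, at least 79.5-fold above the control.

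**Figure D2:**
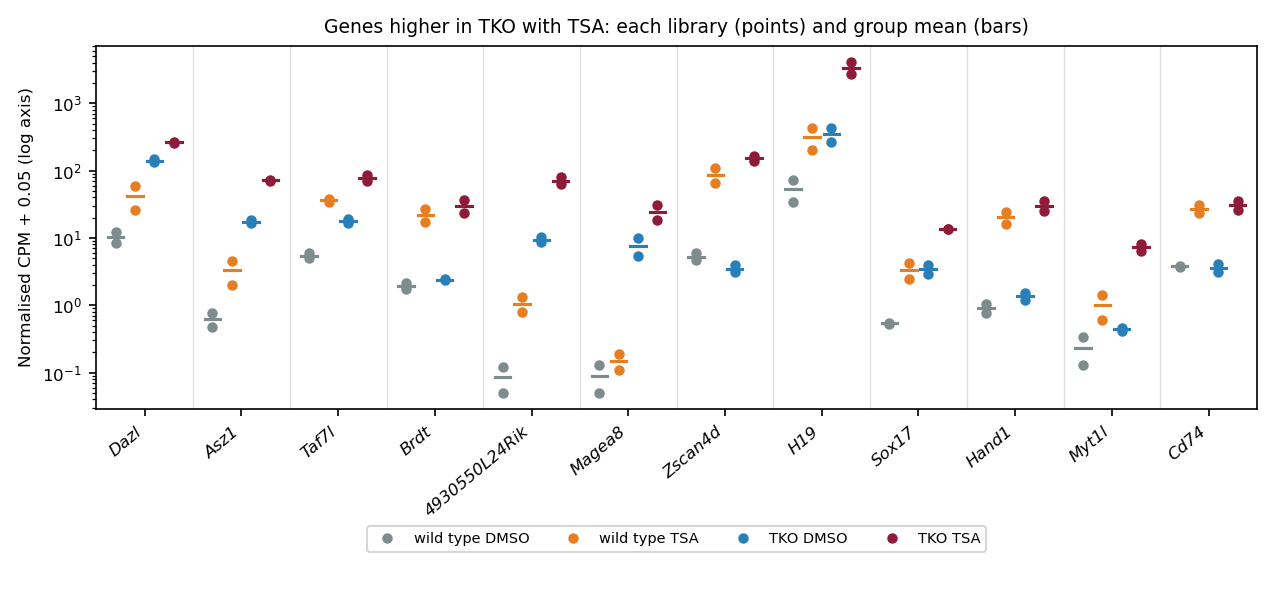
Normalised CPM plus 0.05 on a log axis for 12 genes that were higher in TKO TSA, with a point for each library and a bar for each group's mean. Zscan4d, Hand1 and Cd74 are high in both TSA groups, Magea8 in both TKO groups, and Asz1, 4930550L24Rik and H19 are highest with both changes.

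Two-cell genes, which are read in the two-cell embryo and in a rare state of stem cell cultures, rose in every tested member. All 21 tested members (of 24 listed) were called higher, with a median log2 fold change of 4.80. Members with few counts in the control, such as Zfp352, passed the count filter through other groups and could hardly be called lower. Against TKO alone, where 30.8% of all genes were called higher, all 21 were higher (median 4.74), and against TSA alone 11 were (median 0.80). The median of TKO alone against wild type DMSO was -0.10. Zscan4d, a two-cell zinc finger gene that acts at telomeres, was at 5.85 and 4.62 CPM in the control, 65.5 and 109 with TSA alone, 3.08 and 3.86 in TKO alone and 137 and 166 with both changes. The 4 libraries without TSA were all below the 4 with it, and the TKO TSA libraries were the highest of the 8. Its log2 fold change was 4.85 ± 0.26 (SE; adjusted p 4.05e-07), and 0.80 (adjusted p 0.0171) against TSA alone. Zfp352, another two-cell zinc finger gene, was at 0.285 and 0.648 CPM in the control, 2.26 and 7.14 with TSA alone, 0.616 and 1.16 in TKO alone and 22.1 and 34.9 with both changes. It was called against TSA alone as well, at 2.62 (adjusted p 0.00168), and Tdpoz4 at 2.57 (adjusted p 0.00313). Zscan4 and Tdpoz genes come in close copies, so values of single members are uncertain. Dppa3, a maternal factor also read in naive stem cells and germ cells, rose from 21.3 and 28.5 to 90.7 and 159 CPM (log2 fold change 2.33, adjusted p 1.53e-05).

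Imprinted genes were described by parental origin. These genes are read from 1 parental copy, and methylation laid down in the germline marks which. Of 23 tested paternally expressed genes 16 rose and 2 fell (median 0.68), and of 19 maternally expressed genes 5 rose and 8 fell (median -0.33). The maternally expressed genes called higher numbered 3 without wild type DMSO replicate 1 or TKO TSA replicate 2.

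Among paternally expressed genes Peg10, a domesticated retrotransposon gene needed for the placenta, was at 661 and 559 CPM in the control, 2193 and 2506 with TSA alone, 549 and 574 in TKO alone and 3247 and 3711 with both changes. The TSA libraries were high in both genotypes and the TKO TSA libraries highest. Mest, a hydrolase-like gene of growth control, was at 199.8 and 183 CPM in the control, 237 and 247 with TSA alone, 308 and 259 in TKO alone and 632 and 742 with both changes, with a log2 fold change of 1.84 ± 0.11 (SE; adjusted p 8.87e-07). Its departure from the sum was 0.94 (adjusted p 0.026). Plagl1, a zinc finger regulator of growth genes, had a log2 fold change of 2.94 (adjusted p 4.70e-06). Igf2, the fetal growth factor, went down to 27.8 and 43.6 CPM from 62.8 and 80.1 CPM (log2 fold change -1.0, adjusted p 0.00281), while TSA alone had it at 144 and 221 CPM. Impact, a translation regulator, was the other paternally expressed gene called lower (log2 fold change -0.86, adjusted p 6.65e-05).

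Among maternally expressed genes H19, a noncoding RNA next to Igf2, was at 34.5 and 73.4 CPM in the control, 205 and 426 with TSA alone, 267 and 425 in TKO alone and 2689 and 4095 with both changes. The combined libraries stood above every library with no or 1 change, and the log2 fold change was 5.98 ± 0.46 (SE; adjusted p 2.73e-06). The departure from the sum was 0.74 (adjusted p 0.582), which did not pass. The maternally expressed RNAs of the Dlk1-Dio3 domain went down, with log2 fold changes of -1.12 (adjusted p 0.000165) for Meg3 and -1.13 (adjusted p 6.37e-05) for Rian, and their levels with TSA alone lay close to those with both changes. Grb10, an adaptor that restrains growth signalling, was at 466 and 425 CPM in the control, 137 and 115 with TSA alone, 132 and 121 in TKO alone and 113 and 121 with both changes. It was lower in each group with a single change than in the control, and its departure from the sum was 1.70 (adjusted p 0.00135). Cdkn1c, a cell cycle inhibitor, was at 73 and 93.3 CPM in the control, 96.7 and 126 with TSA alone, 37.1 and 35 in TKO alone and 109 and 175 with both changes, lower in TKO alone and higher with both changes, with a departure from the sum of 1.55 (adjusted p 0.0348). The rise of Cdkn1c was 0.77 (adjusted p 0.00656), and it was no longer called without TKO TSA replicate 2 (log2 fold change 0.39, adjusted p 0.0894) or wild type DMSO replicate 1 (log2 fold change 0.60, adjusted p 0.0613).

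The pluripotency network went down in part. Naive factors hold stem cells in the state of the early epiblast, core factors act in both naive and later states, and formative genes mark the next step. Of 19 tested naive factors 1 rose and 11 fell (median -0.94), of 11 core factors 1 rose and 6 fell (median -0.35), and of 16 formative and epiblast genes 2 rose and 9 fell (median -0.69). The last group holds Dnmt3b, itself knocked out, and without it 2 of 15 rose and 8 fell (median -0.64). Against TSA alone 8 naive factors were higher and 2 lower, where 10.0% and 8.38% of all genes were. Dppa3 was the naive factor that rose. Without TKO TSA replicate 1 the naive factors called higher numbered 2.

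Pou5f1, the core factor also called Oct4, was at 936 and 891 CPM in the control and 397 and 303 with both changes, a log2 fold change of -1.38 (adjusted p 1.16e-05). Nanog was at 237 and 265 CPM in the control, 185 and 191 with TSA alone, 375 and 465 in TKO alone and 322 and 376 with both changes, so that it was higher in TKO TSA than in wild type DMSO (log2 fold change 0.47, adjusted p 0.00481). Sox2 did not pass (log2 fold change -0.14, adjusted p 0.342), and was called lower without TKO TSA replicate 1 (log2 fold change -0.33, adjusted p 0.0464). Esrrb, a naive nuclear receptor, was at 285 and 343 CPM in the control, 127 and 96.5 with TSA alone, 458 and 538 in TKO alone and 179.5 and 144 with both changes. TKO alone was higher than the control, and the TKO TSA libraries lay above the wild type TSA libraries but below the control, with log2 fold changes of -0.96 (adjusted p 0.000279) against wild type DMSO and 0.53 (adjusted p 0.0346) against TSA alone. Klf2 and Tbx3 fell by 1.17 and 1.10 on the log2 scale, and Klf4 did not pass (log2 fold change -0.22, adjusted p 0.309), with a call without TKO TSA replicate 2 (log2 fold change -0.53, adjusted p 0.04). Tdh, the threonine dehydrogenase on which mouse stem cells rely, was at 416 and 379.8 CPM in the control and 75.8 and 57.4 with both changes.

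Trh (chromosome 6, 92242062 to 92244648), which encodes the precursor of thyrotropin-releasing hormone and is abundant in mouse stem cells, had the second largest fall of all genes. It was at 737 and 799 CPM in the control, 109 and 73.9 with TSA alone, 473 and 614 in TKO alone and 11.2 and 8.54 with both changes. All 4 groups were separate, and the log2 fold change was -6.28 ± 0.23 (SE; adjusted p 7.43e-08) against wild type DMSO and -3.21 (adjusted p 6.11e-06) against TSA alone. The departure from the sum was -2.71 (adjusted p 0.00337). Of the formative genes Foxd3, a forkhead factor, was at 25.8 and 24.5 CPM in the control, 2.75 and 1.97 with TSA alone, 38.9 and 40.4 in TKO alone and 5.35 and 2.39 with both changes. Zic2, a zinc finger factor, was at 36.8 and 45.1 CPM in the control, 2.5 and 2.79 with TSA alone, 41.9 and 43.1 in TKO alone and 8.39 and 7.47 with both changes. Both were low wherever TSA was given, yet Zic2 was higher in TKO TSA than in wild type TSA (log2 fold change 1.58, adjusted p 0.000355). Sox3 rose instead, at 2.78 and 3.0 CPM in the control, 1.1 and 1.7 with TSA alone, 3.63 and 2.69 in TKO alone and 7.78 and 12.1 with both changes, with the combined libraries above all others, and its departure from the sum was 2.70 (adjusted p 0.0262).

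Nodal signalling showed its largest falls at the inhibitors. Nodal, a TGF-beta ligand, acts through the cofactor Tdgf1 and induces its own inhibitors Lefty1 and Lefty2. Of 6 tested inhibitors and targets none rose and 5 fell (median -2.43), and of 13 ligands, cofactors and receptors 1 rose and 6 fell. Lefty1 had the largest fall of all genes, at 358 and 316 CPM in the control, 21.2 and 7.68 with TSA alone, 389.9 and 334 in TKO alone and 5.21 and 1.44 with both changes, with a log2 fold change of -6.68 ± 0.46 (SE; adjusted p 1.48e-06). Lefty2 was at 243 and 338 CPM in the control and 7.71 and 1.32 with both changes. Both genes were far lower in both combined libraries than in the control. Nodal itself did not pass (log2 fold change 0.34, adjusted p 0.0502), and was called higher without TKO TSA replicate 1 (log2 fold change 0.51, adjusted p 0.00906) or wild type DMSO replicate 1 (log2 fold change 0.47, adjusted p 0.0297). The other edgeR scalings and count filters also called Nodal higher, with adjusted p from 0.00976 to 0.0469, and so did DESeq2 (0.0382), so its call lay at the threshold. Tdgf1 was at 626 and 763 CPM in the control, 389.8 and 381 with TSA alone, 719 and 685 in TKO alone and 161 and 90.7 with both changes, and its departure from the sum was -1.63 (adjusted p 0.0275). Gdf3, a related ligand, had a log2 fold change of -2.84 (adjusted p 1.19e-06). With upper quartile or total count scaling, or without wild type DMSO replicate 1 or TKO TSA replicate 1, the ligand group had 3 members higher.

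FGF signalling, which pushes stem cells out of the naive state, was mixed. Of 23 tested ligands, receptors and feedback genes 7 rose (30.4%, near the 31.7% of all genes) and 11 fell (47.8%, against 30.2%). Several ligand genes fell. Fgf4, the main FGF of stem cells, was at 147 and 219 CPM in the control, 30.9 and 23.4 with TSA alone, 242 and 312 in TKO alone and 56.8 and 55.8 with both changes. Fgf15 was at 16.3 and 14.3 CPM in the control and 1.56 and 1.44 with both changes. Fgf17 was at 33 and 27.6 CPM in the control and 2.44 and 1.07 with both changes. For Fgf4 the TKO TSA libraries lay above the wild type TSA libraries (log2 fold change 1.05, adjusted p 0.00478). Spry2, a feedback inhibitor, had a log2 fold change of -1.97 (adjusted p 1.46e-05), whereas Dusp6, another, did not pass (log2 fold change 0.02, adjusted p 0.897). The receptor gene Fgfr3 rose (log2 fold change 2.46, adjusted p 1.87e-05), as did the early-response gene Fos (log2 fold change 1.88, adjusted p 0.000102).

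BMP target genes rose together. All 4 Id genes, dominant inhibitors of bHLH factors and BMP targets in stem cells, were higher (median 1.26). Id1 was at 76.8 and 65.9 CPM in the control, 302 and 349.6 with TSA alone, 63.5 and 56.3 in TKO alone and 256 and 170.1 with both changes. Id3 was at 77.2 and 46.3 CPM in the control, 216 and 294 with TSA alone, 28.4 and 24.1 in TKO alone and 99.9 and 105 with both changes. Both were high wherever TSA was given and were lower with both changes than with TSA alone, at -0.61 (adjusted p 0.0244) for Id1 and -1.32 (adjusted p 0.00155) for Id3. The rise of Id3 over wild type DMSO, 0.73 (adjusted p 0.00972), was not called without wild type DMSO replicate 2 (log2 fold change 0.40, adjusted p 0.0667). Of 14 tested BMP ligands, receptors and Smads 5 rose and 3 fell, and without TKO TSA replicate 2 those lower numbered 1. The shares of this list were 35.7% higher and 21.4% lower, against 31.7% and 30.2% of all genes. Smad6, an inhibitory Smad, rose (log2 fold change 2.11, adjusted p 3.35e-06), and Nog, a secreted BMP antagonist, fell (log2 fold change -2.69, adjusted p 0.000414). Bmp4 was at 24.6 and 21.2 CPM in the control, 49.5 and 45.4 with TSA alone, 19.09 and 22.1 in TKO alone and 21.9 and 18.6 with both changes. It was high with TSA alone but not with both changes, and its departure from the sum was -1.08 (adjusted p 0.0334). Of 42 tested Wnt ligands, receptors and targets 13 rose (31.0%) and 10 fell (23.8%), against 31.7% and 30.2% of all genes. Of 11 LIF receptors and Stat3 targets 5 rose, among them Jak1 and Socs3, and 4 fell, among them Lifr and Pim3.

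Genes of the extraembryonic lineages mostly rose. Of 18 tested trophoblast genes 13 rose and 3 fell (median 1.77), and of 22 endoderm genes 15 rose and 1 fell (median 1.26). Hand1, a bHLH factor of trophoblast giant cells, was at 0.999 and 0.729 CPM in the control, 16.3 and 24.2 with TSA alone, 1.16 and 1.46 in TKO alone and 24.9 and 34.9 with both changes. Esx1, a placental homeobox gene, was at 0.50 and 0.973 CPM in the control, 9.89 and 11.5 with TSA alone, 1.03 and 1.02 in TKO alone and 15.9 and 21.6 with both changes. Both were near the control level in TKO alone and high in all 4 TSA libraries, with log2 fold changes of 5.09 (adjusted p 9.06e-07) and 4.68 (adjusted p 1.15e-06). Cdx2, the trophectoderm regulator, was higher with TSA alone (25 and 21.3 CPM) than with both changes (7.78 and 4.33 CPM), against 3.85 and 1.22 CPM in the control, with a log2 fold change of -1.94 (adjusted p 0.00327) against TSA alone. Its rise over wild type DMSO, 1.22 (adjusted p 0.023), was not called without TKO TSA replicate 1 (log2 fold change 0.74, adjusted p 0.185) or wild type DMSO replicate 2 (log2 fold change 0.64, adjusted p 0.143). The 3 members that fell were the keratin genes Krt7, Krt8 and Krt18. Krt8 was at 366 and 216 CPM in the control, 498 and 430.1 with TSA alone, 24 and 36.7 in TKO alone and 27.7 and 44.6 with both changes, low in both TKO groups. Eomes, a regulator of trophoblast and mesendoderm, was at 9.35 and 6.32 CPM in the control, 6.05 and 5.03 with TSA alone, 2.39 and 2.84 in TKO alone and 12.4 and 13.1 with both changes, with a departure from the sum of 2.79 (adjusted p 0.00533). Its rise over wild type DMSO, 0.70 (adjusted p 0.0156), was not called without TKO TSA replicate 2 (log2 fold change 0.65, adjusted p 0.0691) or wild type DMSO replicate 2 (log2 fold change 0.44, adjusted p 0.116).

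Sox17, an endoderm regulator, was at 0.50 and 0.486 CPM in the control, 2.44 and 4.15 with TSA alone, 3.9 and 2.91 in TKO alone and 13.5 and 13.8 with both changes, and its log2 fold change was 4.77 ± 0.35 (SE; adjusted p 2.24e-06). All 6 other libraries lay above the control, with the combined libraries highest. Pdgfra, a receptor of primitive endoderm, had a log2 fold change of 3.05 (adjusted p 4.23e-06), and Gata6, a regulator of that lineage, one of 2.01 (adjusted p 0.00113). Afp, a yolk sac product, rose 57.5-fold (95% counting interval 15.6 to 479.6) from 2 counts in the control. Sparc was the endoderm member that fell (log2 fold change -0.68, adjusted p 0.000118). The summed level of 10 primitive endoderm markers was 21.3 and 24.7 CPM in the control, 81.2 and 83.7 in TKO alone and 68.6 and 79.6 with both changes, where Ttr had 1 count. The sum of 10 trophoblast markers was 29.3 and 26.0 CPM in the control, 94.9 and 96.6 with TSA alone, 8.14 and 11.2 in TKO alone and 62.8 and 78.1 with both changes, below TSA alone, with Tpbpa and Prl3d1 at 0 in TKO TSA. The part of other cell types in these results was not tested. Of 39 listed Hox genes 15 had enough counts to be tested. Of these 8 rose and none fell, at low levels such as 3.45 and 3.83 CPM for Hoxd1 in TKO TSA. A gene with few counts in the control can hardly be called lower. Of 18 mesoderm genes 4 rose and 4 fell (22.2% each, against 31.7% and 30.2% of all genes). T, the primitive streak regulator also called Brachyury, was at 12.8 and 6.57 CPM in the control and 0.541 and 1.0 with both changes.

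Of 20 tested neural progenitor and proneural factors 11 rose and 5 fell (median 1.68), of 56 synaptic genes 23 rose and 8 fell (median 0.44), and of 27 genes of the neuronal cytoskeleton and axon 9 rose and 9 fell, near the shares of all genes. Without TKO TSA replicate 2 the progenitor factors called lower numbered 3, and without wild type DMSO replicate 1 the synaptic genes called lower numbered 5. Myt1l, a zinc finger factor of neurons, was at 0.285 and 0.0811 CPM in the control, 0.55 and 1.36 with TSA alone, 0.411 and 0.364 in TKO alone and 6.29 and 8.1 with both changes. It was highest in the combined libraries, with log2 fold changes of 5.19 (adjusted p 1.28e-05) against wild type DMSO and 2.93 (adjusted p 0.000664) against TSA alone. Pax6 was at 22.4 and 14.6 CPM in the control, 2.5 and 1.77 with TSA alone, 30.3 and 23.3 in TKO alone and 7.44 and 2.95 with both changes, low with TSA in both genotypes.

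In the cytoskeletal group Stmn2 and Tubb3, both read in neurons and in these stem cells, fell by 1.70 and 1.47 on the log2 scale. Gap43, a growth cone protein, was at 25.7 and 29.9 CPM in the control, 18.7 and 15.6 with TSA alone, 11 and 9.1 in TKO alone and 1.08 and 1.0 with both changes. The combined libraries lay far below every other, and the departure from the sum was -2.57 (adjusted p 0.00521). Nefm, a neurofilament gene, did the opposite at 5.5 and 1.46 CPM in the control, 6.78 and 5.17 with TSA alone, 3.01 and 2.11 in TKO alone and 48 and 65.6 with both changes, with a departure from the sum of 3.71 (adjusted p 0.0208). Because 33.3% of Nefm exon bases are shared with another gene of the table and strand use in counting is not stated, its reads may include that neighbour's. The sum of 10 neural markers was 633 and 529.5 CPM in wild type DMSO and 230.5 and 239 CPM in TKO TSA.

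Contractile genes mostly fell, and the level of fibroblast markers moved with them. Of 17 tested contractile and caveolar genes 1 rose and 13 fell (median -1.11). Of 13 collagens 4 rose and 5 fell, and of 25 matrix and secreted genes 10 rose and 6 fell. Tagln, an actin-binding protein of smooth muscle, was at 351 and 153 CPM in the control, 405 and 189.5 with TSA alone, 20.5 and 7.64 in TKO alone and 7.92 and 1.7 with both changes. Acta2, smooth muscle actin, was at 72.8 and 37.1 CPM in the control, 17.5 and 11.5 with TSA alone, 5.13 and 3.57 in TKO alone and 3.99 and 2.13 with both changes. Cav1, the caveolar coat protein, was at 19.06 and 12.2 CPM in the control, 6.29 and 5.37 with TSA alone, 0.137 and 0.0728 in TKO alone and 0.474 and 0.879 with both changes. All 3 were low in both TKO groups. Replicate 1 was higher than replicate 2 in every group for Tagln and Acta2, and for Cav1 in every group but TKO TSA. What libraries of the same number share is not given in the labels and was not tested. The summed level of 14 fibroblast and feeder markers was 515 and 269 CPM in the control, 579 and 352 with TSA alone, 62.1 and 44.6 in TKO alone and 109 and 112 with both changes. In TKO TSA 10 of the 14 were above 1 CPM and Dcn was at 0, and the part of such cells in these results was not tested. Without wild type DMSO replicate 1 the contractile genes called higher numbered 2, and without wild type DMSO replicate 2 or TKO TSA replicate 2 the matrix genes called higher numbered 6.

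Within the matrix genes some rose in the same libraries. Lum, a small matrix proteoglycan, had 2 counts in wild type DMSO and was at 3.3 and 3.74 CPM with TSA alone and 4.74 and 5.65 CPM in TKO TSA. S100a6, a calcium-binding protein, was at 121 and 79.8 CPM in the control, 363 and 389 with TSA alone, 27 and 32.5 in TKO alone and 223 and 285 with both changes. Thbs1, an adhesive glycoprotein, was at 272 and 125 CPM in the control, 236 and 193 with TSA alone, 15.2 and 8.66 in TKO alone and 136 and 159 with both changes, so that the combined libraries lay within the control range, and its departure from the sum was 3.51 (adjusted p 0.00639). Against wild type DMSO it was not called (log2 fold change -0.43, adjusted p 0.218), but was without wild type DMSO replicate 2 (log2 fold change -0.89, adjusted p 0.00368), as Tnc was without TKO TSA replicate 2 (log2 fold change -1.39, adjusted p 0.0378) or with no low count filter (log2 fold change -0.84, adjusted p 0.0486). Col3a1, a collagen, Cav1 and the matrix glycoprotein Tnc departed in the same direction, at 4.41 (adjusted p 0.0438), 4.02 (adjusted p 0.0361) and 4.58 (adjusted p 0.0312). Cav1 lay below the level of 3 counts in TKO alone. The Tnc departure ranged from 3.65 to 9.26 when 1 library was left out. Emp1 (chromosome 6, 135362931 to 135383173), an epithelial membrane protein, was low only in the combined libraries. It was at 33.3 and 43.3 CPM in the control, 29.6 and 32.4 with TSA alone, 37.4 and 42.5 in TKO alone and 1.89 and 2.2 with both changes. The 6 libraries with no or 1 change ranged from 29.6 to 43.3 CPM, with TKO TSA well below, and the departure from the sum was -3.97 ± 0.25 (SE; adjusted p 7.13e-05).

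Epithelial genes were mostly lower or not called, with 3 of 24 higher and 10 lower. Cdh1, E-cadherin, was at 714 and 558 CPM in the control and 369 and 361 with both changes, and Epcam did not pass (log2 fold change 0.11, adjusted p 0.301), but was called higher with total count (log2 fold change 0.27, adjusted p 0.0111) and upper quartile scaling (log2 fold change 0.21, adjusted p 0.0432). Of 12 mesenchymal regulators 5 rose and 5 fell (41.7% each, against 31.7% and 30.2% of all genes). Snai1 and Snai2, repressors of E-cadherin, had log2 fold changes of 2.00 (adjusted p 0.00241) and 3.27 (adjusted p 0.000834), and Zeb2, another, one of -1.98 (adjusted p 6.09e-05). The counts of both groups moved without wild type DMSO replicate 1, to 5 epithelial genes higher and 2 mesenchymal regulators lower. Scaling by total counts gave 5 epithelial genes higher and 3 mesenchymal regulators lower.

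Genes of antigen presentation differed by role. Of 18 tested members 9 rose and 5 fell. Genes of MHC class II, which normally present antigen on immune cells, were among those that rose. Cd74, the class II invariant chain, was at 3.64 and 3.81 CPM in the control, 23.3 and 30.3 with TSA alone, 3.08 and 4.08 in TKO alone and 26 and 35.9 with both changes. H2-Aa, a class II chain, was at 0.143 and 0.243 CPM in the control, 3.66 and 4.69 with TSA alone, 0.411 and 0.873 in TKO alone and 5.07 and 7.72 with both changes. Both were higher with TSA in either genotype. H2-K1, a class I heavy chain, rose from 49.6 and 45 to 92.1 and 125 CPM. The immunoproteasome genes Psmb8 and Psmb10 and the peptidase gene Erap1, which supply peptides to class I, fell. Psmb10 was at 81.9 and 76.7 CPM in the control, 25.2 and 22.3 with TSA alone, 40.1 and 41.1 in TKO alone and 13.1 and 10.9 with both changes, lower with each single change, with a log2 fold change of -2.73 ± 0.13 (SE; adjusted p 2.35e-07).

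Of 33 interferon-stimulated effectors 9 were higher (27.3%) and 11 lower (33.3%), near the 31.7% and 30.2% of all genes. Rsad2 and Mx2, antiviral effectors, rose from under 1 CPM in wild type DMSO to 5.28 and 7.28 and 4.4 and 6.47 CPM in TKO TSA. Gbp2, an interferon-induced GTPase, was at 101 and 69.5 CPM in the control, 51.5 and 40.0 with TSA alone, 18 and 16.2 in TKO alone and 10.1 and 12.6 with both changes. Of 15 sensors and regulators 4 rose and 6 fell, and those higher numbered 2 without wild type DMSO replicate 1 or TKO TSA replicate 2. The shares of sensors and regulators were 26.7% higher and 40.0% lower, against 31.7% and 30.2% of all genes. Ifih1, the RNA sensor also called Mda5, did not pass (log2 fold change 0.56, adjusted p 0.193), and Ddx58, the sensor also called RIG-I, fell (log2 fold change -0.55, adjusted p 0.0016).

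Most of the listed genes for making ribosomes, messages and histones fell. Of 78 tested cytosolic ribosomal protein genes none rose and 63 fell (median -0.54). Without TKO TSA replicate 2 or with total count scaling 2 of the 78 were called higher, and without wild type DMSO replicate 2 or with upper quartile scaling 1 was. Of 30 ribosome biogenesis genes none rose and 26 fell (median -0.66), of 44 spliceosome and hnRNP genes 1 rose and 39 fell (median -0.55), and of 49 replication-dependent core histone genes 3 rose and 38 fell (median -0.70). Against TSA alone these 4 groups had few calls, with 1 ribosomal protein gene higher and 2 lower, 2 biogenesis genes lower, 1 spliceosome gene higher and 2 lower, and 3 histone genes higher and 7 lower. No spliceosome gene was called higher without TKO TSA replicate 2. Scaling by total counts kept the medians below zero, at -0.38, -0.49, -0.38 and -0.53, and gave 38 ribosomal protein genes lower. Ribosomal protein and histone genes have many near-identical copies, so their single values are uncertain.

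Ncl, the nucleolar protein nucleolin, was at 807 and 917 CPM in the control, 487 and 467 with TSA alone, 984 and 844 in TKO alone and 517 and 431 with both changes. Polr1a, the large subunit of RNA polymerase I, was at 494 and 422 CPM in the control, 234 and 223 with TSA alone, 412 and 401 in TKO alone and 213 and 211 with both changes. For both genes the TSA libraries of either genotype were below all DMSO libraries, and neither passed against TSA alone, with log2 fold changes of -0.01 (adjusted p 0.966) for Ncl and -0.11 (adjusted p 0.465) for Polr1a. Ptbp2, a splicing repressor of the neural programme, had the largest fall among splicing genes, at 114 and 118 CPM in the control, 37.5 and 34.5 with TSA alone, 74.7 and 70.9 in TKO alone and 27.3 and 25.5 with both changes. Hist1h1d, a replication-dependent linker histone, fell by 1.19 on the log2 scale. Hist1h2aa and Hist1h2ba, testis histones, were among the 3 core histone genes that rose, at 35.7 and 57.5 CPM in the control and 103 and 118 with both changes for the latter. H3f3b, a replacement H3.3 gene read outside S phase, rose (log2 fold change 1.27, adjusted p 5.09e-06) while its sister H3f3a fell (log2 fold change -0.95, adjusted p 0.000111).

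Genes of DNA replication and the cell cycle were mostly lower. Of 43 tested origin licensing and fork genes 3 rose and 30 fell (median -0.44), and of 24 cyclins and kinases 5 rose and 15 fell (median -0.37). All 6 genes of the Mcm2 to Mcm7 helicase fell, by 0.46 to 1.04 on the log2 scale, and Gins2 fell most (log2 fold change -2.02, adjusted p 1.95e-06), with 11.4% of its exon bases shared with a neighbour. No replication gene was called higher without wild type DMSO replicate 1, and 1 was without either TKO TSA library. Ccnd1, the G1 cyclin D1, was at 314 and 262 CPM in the control, 124 and 66.8 with TSA alone, 215 and 163 in TKO alone and 47.8 and 27.3 with both changes, and Ccnd2 fell as well (log2 fold change -2.05, adjusted p 1.47e-05). Ccne1, cyclin E1, rose (log2 fold change 0.51, adjusted p 0.00115), and Ccna2 did not pass (log2 fold change -0.06, adjusted p 0.598). The cyclins and kinases called higher numbered 3 without wild type DMSO replicate 1 or TKO TSA replicate 2.

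Of 26 tested CDK inhibitors and p53 targets 13 rose and 4 fell. Cdkn1a, the p21 inhibitor, was at 24.5 and 19.6 CPM in the control and 49.3 and 46.2 with both changes. Cdkn2c, the p18 inhibitor, was at 0.642 and 0.811 CPM in the control and 7.71 and 6.15 with both changes. Cdkn1b, the p27 inhibitor, fell from 49.2 and 60.3 to 18.9 and 14.1 CPM. Trp53 fell (log2 fold change -0.73, adjusted p 4.57e-05). In the Bcl2 family 4 of 15 rose and 8 fell. The death-promoting genes Bcl2l11 (Bim) and Pmaip1 (Noxa) rose, with departures from the sum of 1.12 (adjusted p 0.00615) and 1.19 (adjusted p 0.0252). Bcl2l11 was at 61 and 53.6 CPM in the control, 97.7 and 98.5 with TSA alone, 36.9 and 34.4 in TKO alone and 133 and 132 with both changes, lower in TKO alone than in the control and highest with both changes. The protective gene Bcl2l1 fell (log2 fold change -0.78, adjusted p 0.00287), and so did the effector genes Bax (log2 fold change -0.53, adjusted p 0.00192) and Bak1 (log2 fold change -1.55, adjusted p 2.71e-06). Of 11 tested Myc, Max and Mxd genes 5 rose and 5 fell (45.5% each, against 31.7% and 30.2% of all genes). Myc and Mycn were among those that fell, by 1.63 and 1.41 on the log2 scale, and the antagonists Mxd1, Mxd4 and Mxi1 among those that rose.

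Metabolic genes were lower in most of the lists. Of 25 tested glycolysis genes 2 rose and 15 fell (median -0.72), of 16 serine, folate and threonine genes 1 rose and 11 fell (median -0.51), and of 26 sterol genes 6 rose and 15 fell (median -0.50). Of 76 mitochondrial ribosomal protein genes 8 rose and 48 fell (median -0.40), and of 76 nuclear oxidative phosphorylation genes 10 rose and 32 fell (median -0.21). Total count scaling gave 30 mitochondrial ribosomal protein genes lower, 18 oxidative phosphorylation genes, 4 glycolysis genes and 3 serine, folate and threonine genes higher. Ldha, lactate dehydrogenase A, was at 771 and 875 CPM in the control, 404 and 383 with TSA alone, 798 and 859.8 in TKO alone and 408 and 350.3 with both changes. Pkm, pyruvate kinase, was at 2273 and 2286 CPM in the control and 1228 and 1167 with both changes. Slc2a3, a glucose transporter, did not pass (log2 fold change 0.08, adjusted p 0.525). Hmgcs1, an enzyme of sterol synthesis, fell by 0.66 on the log2 scale.

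Small counts in these lists depended on single libraries. Without TKO TSA replicate 2 the genes called higher numbered 3 in the mitochondrial ribosomal list, 5 in oxidative phosphorylation, 3 in the sterol list and 1 in glycolysis. Without wild type DMSO replicate 2 there were 5 mitochondrial ribosomal genes higher, and without wild type DMSO replicate 1 there was 1 glycolysis gene higher. The serine, folate and threonine list had 2 genes higher without wild type DMSO replicate 2 or without TKO TSA replicate 1.

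Of 18 tested redox and metal response genes 9 rose and 4 fell, and of 21 heat shock and unfolded protein genes 7 rose (33.3%, near the 31.7% of all genes) and 4 fell, with a median of -0.008. Without TKO TSA replicate 2, and with upper quartile or total count scaling, the redox genes called lower numbered 2. The metallothionein Mt1 was at 69.4 and 66.8 CPM in the control, 269 and 313 with TSA alone, 49.7 and 60.3 in TKO alone and 250.3 and 297 with both changes, high wherever TSA was given. The heat shock gene Hspa1a was at 2.85 and 3.08 CPM in the control and 14.5 and 30.0 with both changes. Chac1, a glutathione-degrading target of the integrated stress response, fell (log2 fold change -2.73, adjusted p 2.80e-05), as did Atf4, its regulator (log2 fold change -1.26, adjusted p 0.00017). Of 30 lysosome and autophagy genes 11 were higher (36.7%) and 8 lower (26.7%), near the shares of all genes, or 5 lower with total count scaling.

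Genes of the chromatin machinery were also counted. Of 10 tested acetyltransferases 1 rose and 8 fell (median -0.52), of 19 subunits of deacetylase corepressors 1 rose and 11 fell (median -0.33), and of 13 genes of H3K9 methylation and HP1 1 rose and 10 fell (median -0.55). Kat2b, the acetyltransferase PCAF, was at 97.6 and 127 CPM in the control, 33.1 and 31 with TSA alone, 138 and 137 in TKO alone and 33.3 and 27.1 with both changes. Cbx5, which encodes HP1 alpha, was at 1177 and 1210.1 CPM in the control, 507 and 475 with TSA alone, 1026 and 848 in TKO alone and 305 and 247 with both changes. The TKO TSA libraries were the lowest of the 8, and the log2 fold change was -2.11 ± 0.12 (SE; adjusted p 6.49e-07). Of 11 deacetylase genes 2 rose, Hdac6 and Hdac9, and 3 fell, Hdac4, Hdac7 and Hdac10, while Hdac1, Hdac2 and Hdac3 did not pass. Hdac7 was not called without wild type DMSO replicate 1 (log2 fold change -0.39, adjusted p 0.292), TKO TSA replicate 1 (log2 fold change -0.87, adjusted p 0.0738) or TKO TSA replicate 2 (log2 fold change -0.95, adjusted p 0.062), nor with total count scaling (log2 fold change -0.74, adjusted p 0.0536). In Polycomb PRC1 6 of 23 rose (26.1%) and 8 fell (34.8%), near the shares of all genes. Phc1 fell (log2 fold change -1.92, adjusted p 1.37e-05) and Phc2 rose (log2 fold change 1.74, adjusted p 5.84e-06). Scaling by total counts gave 2 acetyltransferases, 3 corepressor genes, 3 H3K9 genes and 10 PRC1 genes higher. There were 2 corepressor and 2 H3K9 genes higher without wild type DMSO replicate 1, and without TKO TSA replicate 1 no H3K9 gene was.

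Enzymes of the methylation cycle also moved. Dnmt3l, a cofactor without catalytic activity, was at 343 and 334 CPM in the control, 526 and 571 with TSA alone, 747 and 671 in TKO alone and 1292 and 1012 with both changes, higher with each change. Tet1 and Tet2, which oxidise methylated cytosine, fell by 2.41 and 1.74 on the log2 scale, and Uhrf1, which brings Dnmt1 to replicated DNA, did not pass (log2 fold change 0.07, adjusted p 0.528), but was called higher with total count scaling (log2 fold change 0.24, adjusted p 0.0294). Of the transcription factors whose binding the series measured and their relatives, 1 of 10 rose and 3 fell. Nrf1 (log2 fold change -0.06, adjusted p 0.606), Yy1 (log2 fold change -0.08, adjusted p 0.615) and Sp1 (log2 fold change -0.05, adjusted p 0.64) did not pass. Those lower numbered 1 without wild type DMSO replicate 2 or TKO TSA replicate 2 and 5 without wild type DMSO replicate 1.

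Smaller groups of chromatin genes split between their members. In Polycomb PRC2, which methylates H3K27, Suz12 rose (log2 fold change 0.66, adjusted p 0.00179) and Ezh2 and Eed fell, at -0.31 (adjusted p 0.0146) and -0.64 (adjusted p 0.000149), of 10 tested. Without wild type DMSO replicate 2 there were 3 PRC2 genes higher and 1 lower, and without TKO TSA replicate 1 there was 1 lower. Total count scaling gave 2 higher and 1 lower, and upper quartile scaling 1 lower. Ezh2 was the member no longer called lower in these 4 settings, with a log2 fold change of -0.27 to -0.14. Of 8 methyl-CpG readers, which bind methylated DNA, 1 rose, or 2 with total count scaling, and 3 fell. Mbd2 was the member that rose (log2 fold change 0.60, adjusted p 0.00132), and Mbd3 was at 73.6 and 61.8 CPM in the control and 32.6 and 27.6 with both changes. Of 8 linker histones 3 rose and 4 fell. Hist1h1t, a testis linker histone, was at 5.92 and 10.8 CPM in the control, 23 and 29.8 with TSA alone, 21.3 and 27.4 in TKO alone and 38.6 and 44.1 with both changes, higher in every other group than in the control, while Hist1h1a, Hist1h1b and Hist1h1c fell by 0.63, 0.62 and 0.60 on the log2 scale. Of 12 replacement core histones 3 rose, or 5 with total count scaling, and 4 fell. The reported shares were 25.0% higher and 33.3% lower, against 31.7% and 30.2% of all genes. H2afy2, a macroH2A gene, was at 17.2 and 16.1 CPM in the control and 6.63 and 5.27 with both changes.

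DNA repair by recombination and the motor genes were lower for many members. Of 20 recombination repair genes 2 rose, Rad51c and Atr, and 11 fell, with Fanca, of the crosslink repair pathway, at 103 and 98.3 CPM in the control and 59.3 and 56 with both changes. Without wild type DMSO replicate 1 there was 1 higher, since Atr was no longer called (log2 fold change 0.32, adjusted p 0.0563), without wild type DMSO replicate 2 there were 4 higher, and without TKO TSA replicate 2 there were 7 lower. Upper quartile scaling gave 4 higher and 7 lower, and total count scaling 6 higher and 6 lower. Of 26 kinesins, dyneins and tubulins 5 rose and 12 fell, or 6 lower with total count scaling. Kif1a, a neuronal motor, was at 101 and 69.9 CPM in the control, 104 and 78.4 with TSA alone, 13 and 10.3 in TKO alone and 21.2 and 20.1 with both changes. Dync1i1, a dynein subunit, was at 0.999 and 0.405 CPM in the control, 4.34 and 4.42 with TSA alone, 0.411 and 0.80 in TKO alone and 8.25 and 7.79 with both changes. Tubb5, an abundant beta-tubulin gene, fell (log2 fold change -1.07, adjusted p 1.79e-05). Of 34 clustered protocadherins, cell surface genes that share exons within a cluster so that their reads are split with uncertainty, 7 rose and 5 fell, or 4 and 3 without TKO TSA replicate 2. The protocadherin shares were 20.6% higher and 14.7% lower, against 31.7% and 30.2% of all genes. Pcdhac2 was at 0.143 and 0.0811 CPM in the control and 1.49 and 1.19 with both changes.

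**Figure D3:**
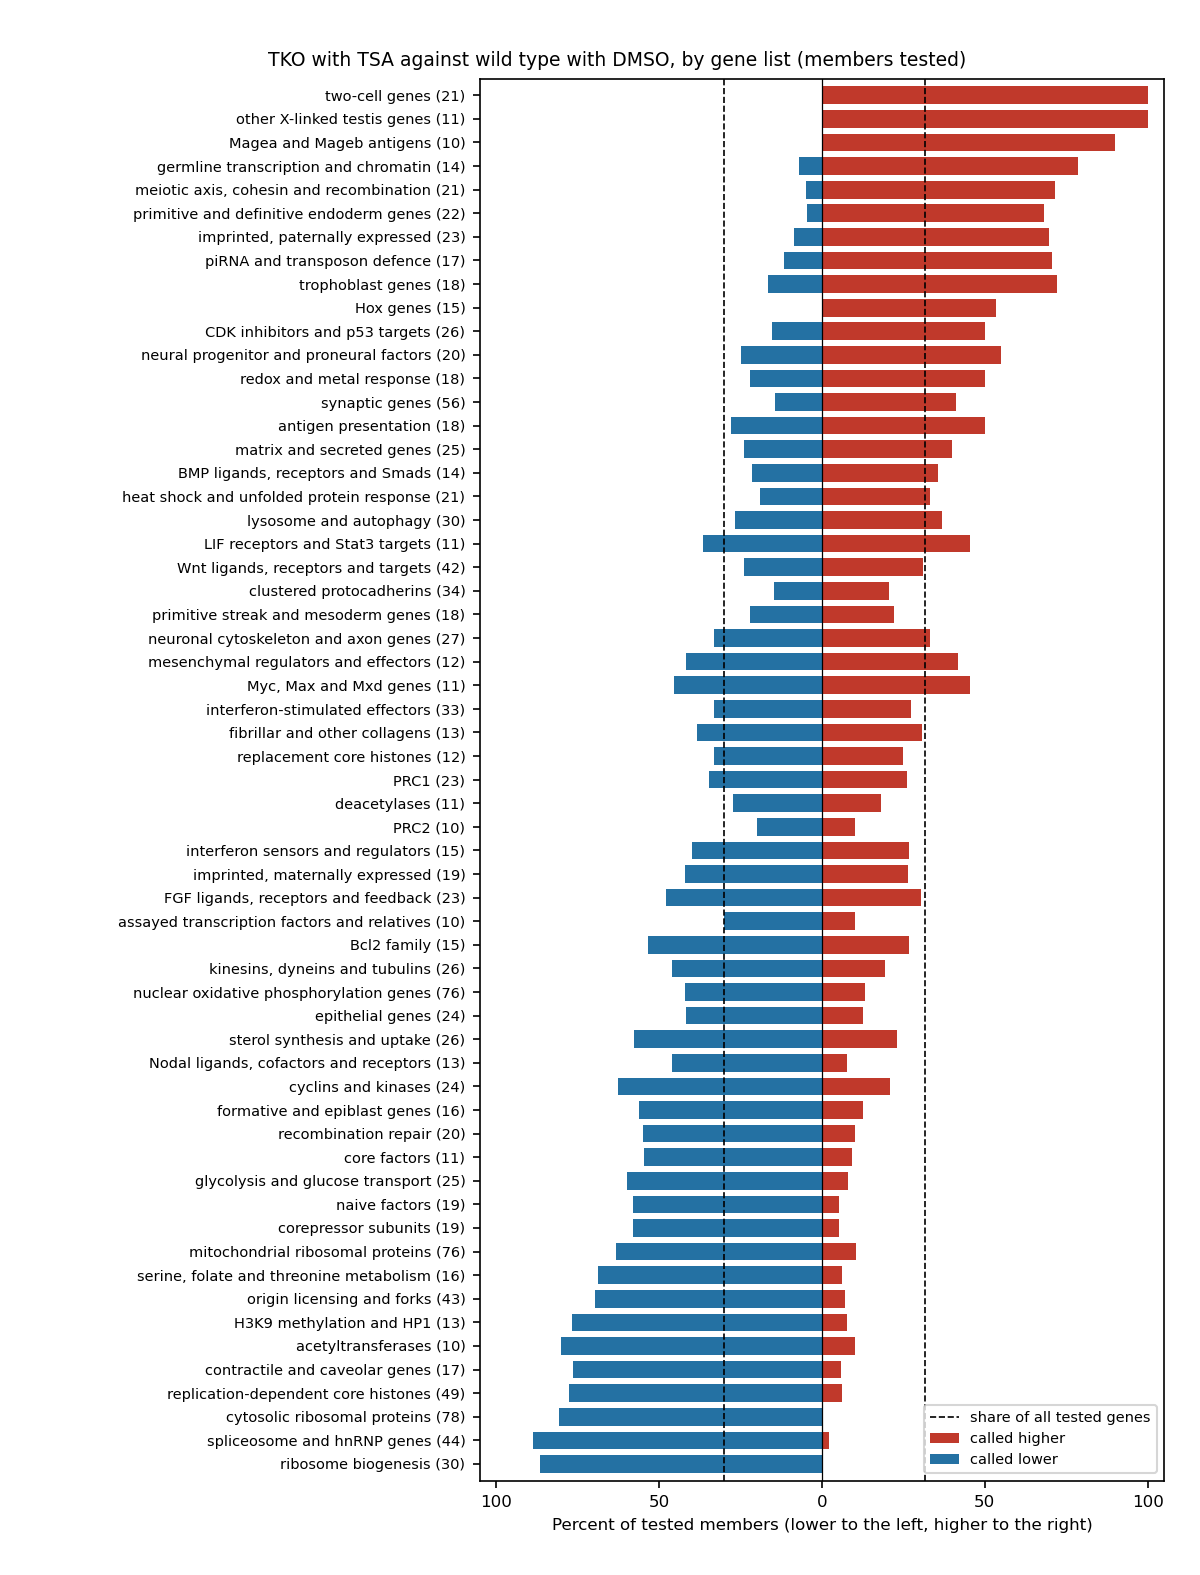
Percent of tested members called higher (red, to the right) and lower (blue, to the left) in TKO TSA against wild type DMSO, for gene lists with 10 or more tested members, with that number in brackets. Dashed lines mark the shares of all tested genes, 31.7% higher and 30.2% lower, which the two-cell, testis and germline lists pass on the right and the ribosome, spliceosome, histone and contractile lists on the left.

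Gene families were also defined by the stem of the symbol alone. Of 102 families with at least 15 tested genes, the largest shares called higher were in Tex (66.7% of 18), Adamts and Prss (58.8% of 17 each), Unc (52.9% of 17) and Aldh (52.6% of 19), followed by Adam, Mfsd and Sema at 50.0%. Tex genes are named for expression in testis, Adamts genes encode matrix metalloproteases and Prss genes serine proteases. The largest shares called lower were in Rpl (72.9% of 48), Hist (72.1% of 61), Rps (69.6% of 46), Nup (68.2% of 22), Mrpl (66.0% of 47) and Snora (65.6% of 32). Nup genes encode the nuclear pore and Snora genes small nucleolar RNAs. The median of each of these 14 families kept its sign under all 3 other scalings.

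**Figure D4:**
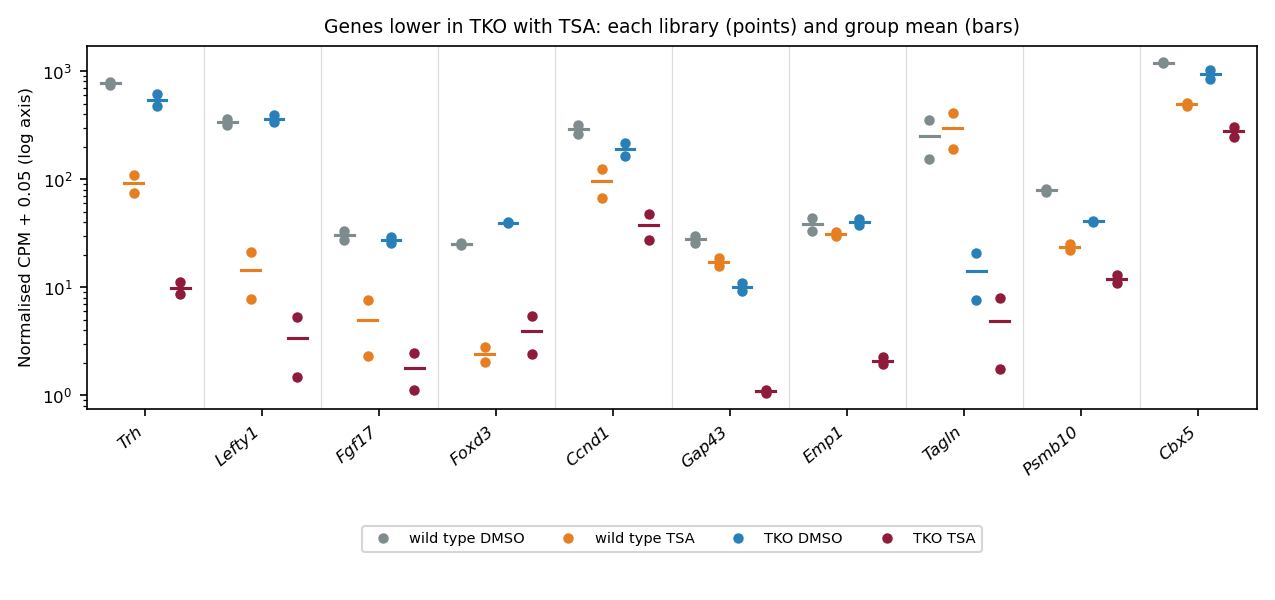
Normalised CPM plus 0.05 on a log axis for 10 genes that were lower in TKO TSA, with a point for each library and a bar for each group's mean. Lefty1, Fgf17 and Foxd3 are low in both TSA groups, Tagln in both TKO groups, and Emp1 and Gap43 are lowest with both changes.

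The list medians of the single and combined changes are set side by side here, untested, from comparisons that share the wild type DMSO libraries. For the two-cell genes the medians were 3.54 with TSA alone, -0.10 in TKO alone and 4.80 with both. The Magea and Mageb genes had fitted medians of 0.37, 6.43 and 8.32 in the same order, with no count in wild type DMSO for 4 of 10 members, and 4.89 for both changes with those members at their bound. The medians were, for the trophoblast genes 1.64, -0.28 and 1.77, for the endoderm genes 0.28, 1.23 and 1.26, and for the contractile genes 0.10, -1.23 and -1.11. Piwil2, of the piRNA pathway, had levels that stepped up across the groups, at 24.7 and 34.5 CPM in the control, 41 and 63.5 with TSA alone, 66.4 and 79.8 in TKO alone and 111 and 122 with both changes, and its departure from the sum was -0.15 (adjusted p 0.866).

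**Figure D5:**
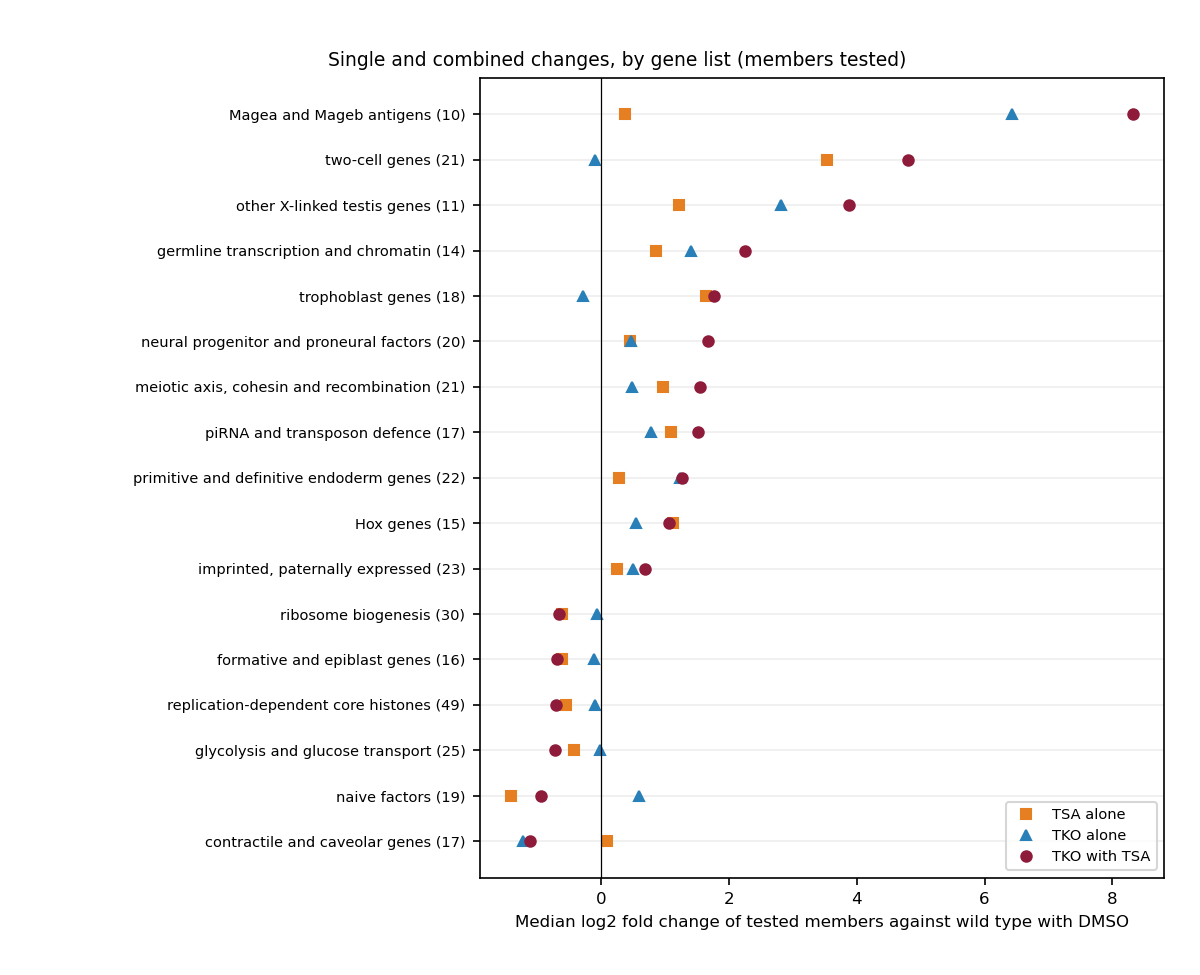
Median log2 fold change against wild type DMSO for TSA alone (squares), TKO alone (triangles) and TKO with TSA (circles), for lists with 10 or more tested members and a combined median of at least 0.6 in size. The two-cell list has 3.54, -0.10 and 4.80 in that order, and the Magea and Mageb list is drawn at its fitted 8.32 with both changes (4.89 with undetected members at their bound). All 3 medians of a list share the same control libraries.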

How the data were processed

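Total RNA of mouse embryonic stem cells was depleted of ribosomal RNA with Ribo-Zero, made into strand-specific libraries with NEBNext Ultra Directional reagents and sequenced as paired ends, per the labels' protocols. The authors deposited 1 table of raw counts per gene for 8 libraries, per the file headers. The submitters' processing notes name TopHat2 2.0.13, featureCounts 1.4.5-p1, edgeR 3.22.3 and build mm10. The use of strand in counting and the treatment of reads with several matches are not given in the sources used here, so genes with close copies or overlapping neighbours are uncertain. Of 23420 rows, 27 carry date-like names made from gene symbols, 2 names occur more than once and 2990 rows have no count.

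Tests used edgeR (version 4.0.16, R 4.3.3) on the deposited counts. Genes were kept by filterByExpr (15822), scaled by TMM, and fitted with 1 mean for each group and 4 residual degrees of freedom over the 8 libraries. Two-sided quasi-likelihood tests were adjusted by Benjamini-Hochberg over all tested genes and called at an adjusted p below 0.05. A value per gene is a normalised CPM computed from the deposited counts, and fold changes are on the log2 scale. Replicates of the same group differed by more than sampling noise (chi-square per degree of freedom 5.17 to 11.7), and the common biological coefficient of variation was 10.3%. For 1 gene, exact permutation of 2 against 2 libraries cannot give a p below 0.333. Totals of 13280631 to 15542527 counts set the precision of low genes. A gene at 0 in wild type DMSO is given a lower bound from 3 counts over the group, and a gene with 1 to 3 counts there a ratio with a 95% counting interval. The fit was tested on simulated data before use.

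The members and lists were chosen with earlier results of these data known. Genes are named if marked in a list, if among the 3 largest called rises or falls of a list or the 10 over all genes (at least 1 CPM in either group, groups not overlapping), if among the 5 largest called departures from the sum in either direction, or if a cell type marker. Several genes that this rule covers are not reported here. Families are symbol stems with at least 15 tested genes. Alternatives were other scalings, DESeq2 1.42.0, other filters, a replicate block, a fit to 4 libraries, a 2-fold minimum, leaving out each library and, chosen after seeing the data, leaving out Rn45s. Other samples of the series were not used here.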

Additional observations from a re-analysis of the deposited data

Results flagged for a closer look

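The genes below are brought up because the test of the difference itself showed that the effect of TSA differed between the genotypes: the log2 fold change with both changes departed from the sum of the single log2 fold changes, all against wild type DMSO, at an edgeR adjusted p below 0.05. How many of these calls were lost when 1 library was left out is given with the counts in the report.

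Of 25 matrix and secreted genes 5 lay above the sum and 2 below it, with 2 of 13 collagens and 1 of 17 contractile and caveolar genes above and none below. Of all tested genes 0.879% were called above the sum and 0.468% below it. The departure was 4.58 for Tnc, 4.41 for Col3a1, 4.02 for Cav1, 3.51 for Thbs1 and 1.19 for S100a6. In TKO DMSO the Cav1 level was below that of 3 counts (0.205 and 0.218 CPM), so its departure rests on few counts. When 1 library was left out the Tnc departure ranged from 3.65 to 9.26. The level of each of these 5 genes was below the control in TKO DMSO and higher in TKO TSA than in TKO DMSO. The call of S100a6 was lost with upper quartile (adjusted p 0.0659) and total count scaling (0.0687), with the 1 CPM filter (0.0514) and in 6 of the 8 fits without 1 library. The summed fibroblast and feeder markers moved with them, at 62.1 and 44.6 CPM in TKO DMSO and 109 and 112 CPM in TKO TSA, and the part of such cells was not tested.

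Among single genes the departure was 2.79 for Eomes, 2.70 for Sox3 and 1.53 for Zic2, and, among imprinted genes, 1.70 for Grb10, 1.55 for Cdkn1c and 0.94 for Mest. The death-promoting genes Pmaip1 and Bcl2l11 were at 1.19 and 1.12, and Nefm was at 3.71. Dnmt3b, which is itself knocked out in these cells, had a departure of 1.33, from levels of 596 and 588 CPM in the control, 378 and 343 with TSA alone, 46.2 and 43.7 in TKO alone and 61.4 and 76.1 with both changes.

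Below the sum the departure was -3.97 for Emp1, -2.71 for Trh, -2.57 for Gap43, -1.63 for Tdgf1 and -1.08 for Bmp4. Emp1 was low only with both changes, while Gap43 and Trh were lower than the control with each single change as well.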

How the results depend on the processing

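Against wild type DMSO the calls stayed within 1.5 times of 5015 higher and 4778 lower under the other scalings, filters, DESeq2, the fit to 4 libraries and without Rn45s. Leaving out 1 library gave 4115 to 4965 higher and 3783 to 4685 lower. The library that then stands alone in its group is assumed to vary like the other groups. A 2-fold minimum left 2962 and 1441, by its construction. Against TSA alone, leaving out 1 library gave 527 to 1901 higher and 414 to 1570 lower, and against TKO alone 3760 to 5223 and 3298 to 4686. The departures from the sum moved most, with 6 to 292 genes above and 4 to 118 below when 1 library was left out. They numbered 274 and 127 with DESeq2, which gave 1841 genes no adjusted p, and 306 and 182 with no low count filter, and the cause was not tested.

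The replicate numbers were not taken to pair the libraries, since the labels tie them to nothing shared and each group has 2. Deviations of same-numbered libraries correlated at 0.0673 between wild type DMSO and TKO TSA and at 0.105 to 0.325 for the other group pairs. With the replicate block there were 5323 higher and 5090 lower against wild type DMSO, 2229 and 1868 against TSA alone, 5247 and 4792 against TKO alone, and 406 and 227 departures. The block also called Nodal higher (log2 fold change 0.33, adjusted p 0.0353) and Sycp3 lower (-0.51, adjusted p 0.0216).

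Of 68 list medians, 10 went from below to above zero with upper quartile and 12 with total count scaling, which moved the median gene by 0.107 and 0.169. In 3 of these lists the reported median was further from zero than the spread between libraries. The Nodal ligand list went from below zero to 0.049 with upper quartile and 0.11 with total count scaling, the acetyl-lysine readers to 0.0076 and 0.070, and the assayed factors to 0.021 with total counts. Of 2312 list counts under alternatives, 2196 stayed within 1.5 times of the reported count. Of 3281 gene values against wild type DMSO, 3246 kept their side of the threshold. Changes of a few counts in genes near 0.2 CPM are not detectable at this depth.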
